A study of Mus musculus with 14 samples.

Results

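H3K27ac was mapped at 10 genes of the Wnt pathway in the embryonic day (E) 14 mouse retina. The genes were the secreted frizzled-related proteins Sfrp1 and Sfrp2, the receptors Fzd5 and Fzd8, the co-receptor Lrp6, β-catenin (Ctnnb1), the transcription factors Tcf7l1, Tcf7l2 and Lef1, and the feedback gene Axin2. They are 10 of the 22367 protein-coding genes of the GENCODE vM1 annotation. Every peak of the list that overlapped a gene body or the 50 kb on either side of it was taken, which gave 20 of 13463 peaks. Positions refer to the mm9 assembly.

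The study profiled the chromatin and transcriptome of retinal progenitor cells (RPCs), and the data here come from its E14 H3K27ac ChIP-Seq. Retinas came from CD-1 mice (strain CD1 in the labels) with no knockout allele and no treatment. A pair of replicate libraries was pooled into 1 peak list and compared with 1 isotype control. The sample labels name RPCs as the cell type, whereas the methods describe ChIP on whole dissected retinas, and which of these holds was not settled here.

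Wnt ligands bind a frizzled receptor together with an LRP co-receptor, and this halts the complex of Axin, Apc, Gsk3 and casein kinase that otherwise destroys β-catenin. Stabilised β-catenin then joins TCF/LEF proteins on DNA, and Axin2 is among the genes that this turns on in many tissues. Secreted frizzled-related proteins bind Wnt ligands outside the cell. In the developing eye the pathway is known for its activity at the ciliary margin and in the pigment epithelium, and Fzd5 is a receptor of retinal progenitors. Acetylation of histone H3 at lysine 27 (H3K27ac) marks active promoters and active enhancers.

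The list gives a length, a mean pileup (overlapping ChIP fragments per position, after scaling to the smaller library) and a fold enrichment (FE) over the local background for each peak. It rests on 113543038 ChIP tags and 9210563 control tags kept after removal of duplicates. Over all peaks the median length was 1015 bp, the median pileup 15.1 and the median FE 4.46. The RPC markers Pax6, Rax, Six3, Six6, Lhx2, Sox2, Hes1, Ccnd1 and Fgf15 each had a peak at a transcription start site (TSS), against 1 of 6 pigment epithelium markers (Pmel), 0 of 5 lens markers, 1 of 4 endothelial markers (Kdr), 0 of 4 microglial markers and 1 of 3 red blood cell markers (Klf1). With 1 pooled list there is no replicate error for any peak, so ranks and counts are descriptions and no test was made. In chromatin pooled from many cells, a low pileup in all cells and a high one in few cells cannot be told apart.

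A peak within 1000 bp of an annotated TSS was found at 9 of the 10 genes, all but Lef1. Of all protein-coding genes 49.8% had such a TSS peak. Besides these 9 peaks, the windows held 8 distal peaks, more than 1000 bp from every annotated TSS, and 3 peaks at the TSS of another gene. The distal peaks lay at only 3 of the genes, Tcf7l1 with 4 and Fzd5 and Tcf7l2 with 2 each, and 17.8% of protein-coding genes had at least 1 distal peak in such a window. Sfrp1, Fzd8, Lrp6, Ctnnb1 and Axin2 had their TSS peak and no other peak in the window, and Lef1 had no peak at all, as did 27.9% of protein-coding genes.

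**Figure D1:**
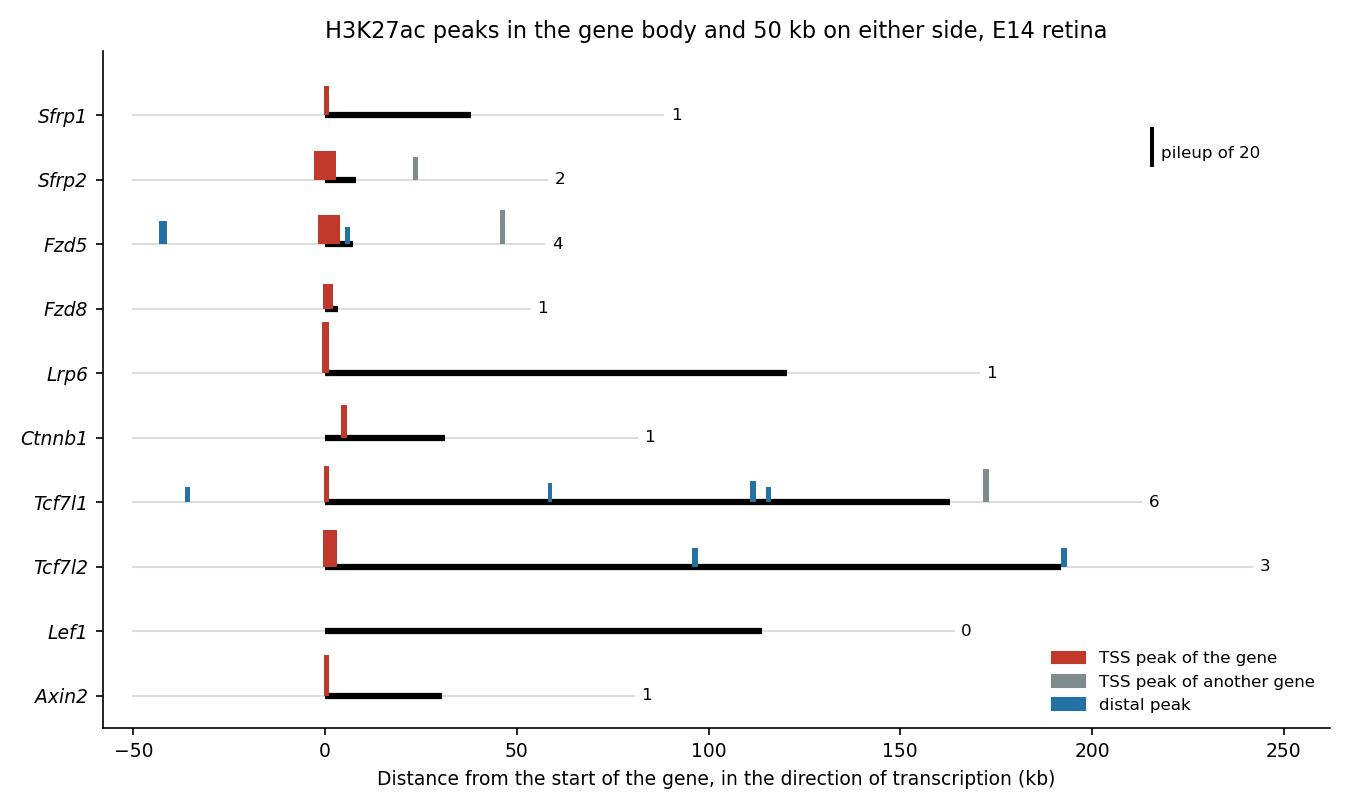
Peaks around each of the 10 genes. The horizontal axis is the distance in kb from the start of the gene in the direction of transcription, black lines are gene bodies, grey lines the 50 kb on either side, and each bar is a peak whose height is its pileup (black scale bar, 20) and whose width is its length, with bars under 1.2 kb drawn 1.2 kb wide. The figure at the right of each line is the number of peaks, from 0 at Lef1 to 6 at Tcf7l1, and the blue distal bars are all lower than the red TSS bars.

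The TSS peaks of these genes differed in both length and pileup. Length ran from 797 bp at Sfrp1 to 5816 bp at Sfrp2, and pileup from 12.49 at Fzd8 to 25.6 at Lrp6. As percentiles among all peaks, these ranges were 35.2 to 99.8 by length and 31.9 to 98.7 by pileup. Of the 9 peaks, 7 were longer than the median of all peaks, 8 had an FE above the median and 5 had a pileup above it. Against the 10608 peaks that lie near a TSS, whose medians were 1071 bp and a pileup of 16.25, 7 of the 9 were longer and 4 had a higher pileup. Length and pileup were only loosely related over the 13463 peaks, which come from the same libraries (Spearman's rho 0.344, a description across peaks). The longest peaks of the set, at Sfrp2 and Fzd5, had a pileup below the median, the next longest, at Tcf7l2, had one above it (18.23), and the highest pileup, at Lrp6, belonged to a peak of moderate length.

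**Figure D2:**
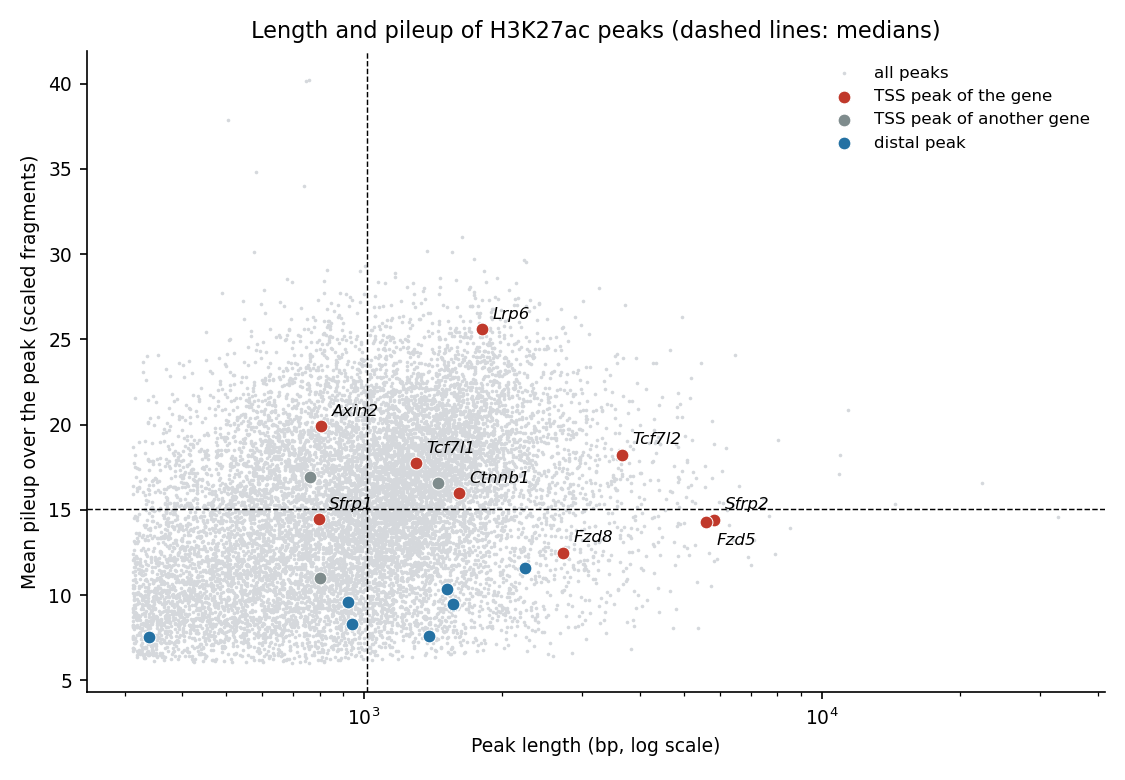
Length in bp (log scale) and mean pileup of all 13463 peaks in grey, with the 20 peaks in the windows of the Wnt genes coloured by class. Sfrp2 and Fzd5 lie at the far right at a pileup of 14.41 and 14.3, Lrp6 at the top at 25.6, and the 8 distal peaks below the median pileup (horizontal dashed line).

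The secreted modulators Sfrp1 and Sfrp2 had peaks of nearly equal pileup and very different length. Sfrp1 (ENSMUSG00000031548.7, chr8:24521974-24560104, plus strand) had a single peak at chr8:24521961-24522757. It was 797 bp long, started 13 bp before the gene and covered 784 bp of exon, 501 bp of it coding. Its pileup was 14.45 (rank 7366 of 13463) and its FE 5.98 (rank 1916). The FE rank was thus well above the pileup rank, and the GC content of the peak was 70.0%, above the 61.5% median of peaks near a TSS. The next peak lay just outside the window, 50244 bp upstream of the gene, with a length of 407 bp, a pileup of 8.91 and an FE of 4.79, and no annotated TSS lay near it.

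Sfrp2 (ENSMUSG00000027996.7, chr3:83570243-83578238, plus strand) had a peak of 5816 bp at chr3:83567226-83573041, the 28th longest of all peaks. It reached 3017 bp upstream of the gene and 2798 bp into it, and of its bases 723 were exonic and 2076 intronic. Pileup was 14.41 (rank 7405), nearly that of Sfrp1, and FE was 5.06 (rank 4300). By the sum of pileup over its length it ranked 66th, whereas the Sfrp1 peak ranked 8422nd. Base composition differed as well, with 53.3% GC and 3.56 CpG dinucleotides per 100 bp at Sfrp2 against 70.0% and 12.2 at Sfrp1. The window also held the TSS peak of Gm16790, 802 bp long with a pileup of 11.03, which lay 15155 bp past the end of Sfrp2.

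Peaks were scanned on both strands for 3 short words. CTTTGAT and CTTTGAA are core letters that TCF/LEF proteins read, and the palindrome TAATTA is a core read by LHX2 and other homeodomain proteins. The first pair share all letters but the last, so they cannot match at the same place, and no match found in these peaks overlapped another. A match is a description of the sequence and not a binding site. The 5816 bp peak of Sfrp2 held 1 TAATTA and 1 CTTTGAT, 73 bp apart in an intron, 1321 and 1400 bp after the gene start. They are shown because they are the only place in the 20 peaks where both kinds of word lay within 100 bp of each other. The stretch is chr3:83571554-83571659 on the plus strand, with the matches in capitals (CTTTGAT reads on the other strand and appears as ATCAAAG):
Sfrp2 intron: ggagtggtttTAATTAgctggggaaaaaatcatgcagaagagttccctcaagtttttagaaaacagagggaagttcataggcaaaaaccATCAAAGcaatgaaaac

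This stretch had a GC content of 37.7% and no CpG, below the 53.3% of the whole peak.

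Fzd5 (ENSMUSG00000045005.8, chr1:64777134-64784324, minus strand) encodes a frizzled receptor in a gene of 7191 bp. Its TSS peak at chr1:64780547-64786134 was 5588 bp long, the 33rd longest of all peaks, and it ran from 1810 bp upstream of the gene to 3777 bp inside it. It covered all 1755 coding bases of the gene. Pileup was 14.3 (rank 7508) and FE 4.92 (rank 4796), both close to those of Sfrp2, so that both genes lay below the median of all peaks by pileup and above it by FE. Only 55 peaks of the list, 0.409%, reached 5000 bp, and the peaks of Sfrp2 and Fzd5 were among them. Of the protein-coding genes with a TSS peak, 99.7% had a shorter one than Fzd5.

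The window of Fzd5 held a pair of distal peaks, one inside the gene and one upstream of it. The first, at chr1:64777963-64778903, was 941 bp long and lay wholly in the untranslated part of an exon of Fzd5, with its midpoint 5.89 kb after the gene start. Its pileup was 8.33 and its FE 3.4. The second, at chr1:64825491-64827734, was 2244 bp long and lay 42.3 kb upstream of the gene, with a pileup of 11.6 and an FE of 3.87. It was the longest of the 8 distal peaks in the windows and the 905th longest of all peaks, and with a gap of 41167 bp to the gene it was the peak farthest inside the limit of 50 kb. At 48.0% its GC content was below the 53.3% median of distal peaks. It held 2 TAATTA words and 1 CTTTGAT, more matches than any other distal peak of the set. They are given with 10 bases on either side, read on the minus strand as the gene is, at chr1:64826215-64826240, chr1:64825990-64826015 and chr1:64827703-64827729:
Fzd5 upstream TAATTA, farther from the gene: ggcttaacagTAATTAgtggtggatt
Fzd5 upstream TAATTA, nearer to the gene: agcttgaaaaTAATTAtaggggtggg
Fzd5 upstream CTTTGAT: catgtgttttCTTTGATtggtgctata

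The remaining peak in the window of Fzd5 belonged to the TSS of Ccnyl1 and 2810408I11Rik. It was 762 bp long with a pileup of 16.94, and its FE of 8.05 ranked 202nd of all peaks, higher than that of any peak of the 10 genes themselves.

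Fzd8 (ENSMUSG00000036904.5, chr18:9212854-9216199, plus strand), a further frizzled receptor, had 1 peak of 2724 bp at chr18:9212208-9214931, the 498th longest. The peak started 646 bp upstream of the gene and covered 2014 of its 2055 coding bases. Its pileup of 12.49 (rank 9175) and FE of 4.25 (rank 7679) were the lowest among the 9 TSS peaks, and its FE was the only one below the median of all peaks. Fzd5 and Fzd8 thus shared a long peak with a pileup below the median over most or all of a short coding sequence. No other peak lay within 232978 bp of Fzd8.

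The co-receptor Lrp6 (ENSMUSG00000030201.8, chr6:134396494-134516983, minus strand) had the highest pileup of the set. Its peak at chr6:134515858-134517667 was 1810 bp long, with a pileup of 25.6 (rank 182 of 13463) and an FE of 6.29 (rank 1441). It extended 684 bp upstream of the gene and 1125 bp into it, and covered 2 of its 3 annotated TSSs. The rest of this gene of 120490 bp and its flanks held no peak. Lrp6 was the only gene of the 10 with a pileup among the first 1000 of the list.

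Ctnnb1 (ENSMUSG00000006932.9, chr9:120838334-120869625, plus strand), which encodes β-catenin, had 1 peak of 1610 bp at chr9:120842495-120844104. This peak began 4161 bp after the start of the gene record and covered 5 of 13 annotated TSSs, so it lay at internal promoters and not at the most upstream one. Pileup was 15.97 (rank 5819), FE was 5.09 (rank 4193) and length ranked 2565th. These values were at or near the middle of the 9 TSS peaks. The most upstream promoter, from 250 bp before to 50 bp after the start of the gene record, had a GC content of 40.7%, whereas the internal peak had 64.6%. That upstream promoter held the only TAATTA found in the promoter windows of the 10 genes, a word present in 4.83% of all such windows.

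Among the transcription factors that carry the signal to DNA, Tcf7l1 and Tcf7l2 had TSS peaks and distal peaks, and Lef1 had neither. Tcf7l1 (ENSMUSG00000055799.6, chr6:72576372-72739248, minus strand), which acts mostly as a repressor in the absence of signal, had a TSS peak of 1300 bp at chr6:72738227-72739526. Its pileup was 17.74 (rank 4068) and its FE 5.35 (rank 3392). With 4 distal peaks at the cutoff of the list Tcf7l1 had more than any other gene of the set. Of protein-coding genes 0.398%, 89 in number, had as many or more. Tcf7l1 is a gene of 162877 bp, and among the 2401 protein-coding genes of 100 kb or more the share with as many was 2.00%. The count rests on weak calls, with −log10 q values of 1.71, 4.09, 1.5 and 1.25. Only the peak with 4.09 met a q of at most 0.01. Both distal peaks of Tcf7l2 met it (3.58 and 3.38), so at that limit Tcf7l1 did not have the most.

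The distal peaks of Tcf7l1 were low. Those inside the gene were wholly intronic and lay 58.7, 112 and 116 kb after the gene start. The first of them, at chr6:72680112-72681036, was 925 bp long with a pileup of 9.61 and an FE of 3.19. The peak at chr6:72626948-72628464 was 1517 bp long with a pileup of 10.34 and an FE of 4.75, and the peak at chr6:72622989-72624376 was 1388 bp long with a pileup of 7.59 and an FE of 3.62. The last 2 were neighbours in the same far part of the gene. The remaining distal peak, 35.9 kb upstream at chr6:72775019-72775358, was 340 bp long with a pileup of 7.57 and an FE of 3.22, ranking 13151st by length. A TSS peak of Tgoln1, 1453 bp long with a pileup of 16.55 and an FE of 3.92, lay 8798 bp past the end of Tcf7l1.

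Tcf7l2 (ENSMUSG00000024985.11, chr19:55816300-56008144, plus strand) had a TSS peak of 3661 bp at chr19:55815755-55819415, the 183rd longest. It covered 11 of 17 annotated TSSs. Its pileup was 18.23 (rank 3610), the third highest of the set after Lrp6 and Axin2, and its FE 5.24 (rank 3698). Length and pileup were both above the median, so that it ranked 153rd by the sum of pileup over its length. An intronic peak at chr19:55911853-55913416 lay 96.3 kb after the gene start, 1564 bp long with a pileup of 9.39 and an FE of 4.66. A second distal peak at chr19:56008148-56009712 started 4 bp past the end of the gene, 1565 bp long with a pileup of 9.45 and an FE of 4.5. These 2 peaks were alike in length and pileup. Of protein-coding genes of all sizes 4.46% had at least 2 distal peaks in the window. Tcf7l2 is a gene of 191845 bp, and long genes had distal peaks more often. At least 1 was found at 26.0% of genes of 100 kb or more, against 17.8% of all protein-coding genes.

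Over the 3 genes, the 8 distal peaks had pileups of 7.57 to 11.6 and a median of 9.42, against 9.9 for all 2855 distal peaks. The highest of them was below the lowest TSS peak of the set, at 12.49. Their median length of 1452.5 bp was above the 801 bp of all distal peaks, and 7 of the 8 were longer than that median. The length limit of the list is 313 bp, and the shortest member was 340 bp. An FE of at least 4 with a q of at most 0.001, a stricter limit, was met by 3 of the 8 (the intronic peak of Tcf7l1 with a pileup of 10.34 and both peaks of Tcf7l2), against 30.1% of all distal peaks. The same limit was met by all 9 TSS peaks, against 73.2% of all peaks near a TSS.

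Lef1 (ENSMUSG00000027985.8, chr3:130813389-130927274, plus strand), a TCF/LEF factor and itself a Wnt target in several tissues, had no peak at any of its 3 annotated TSSs. The nearest peak to the gene, 424 bp long with a pileup of 15.55, lay 78387 bp away at the TSS of Cyp2u1 and 4930534D22Rik. Of genes of 100 kb or more, 68.6% had a TSS peak and 18.3% had no peak in the window. Lef1 and Lrp6 are long genes of similar size, 113886 and 120490 bp, and stood at opposite ends of the set by pileup. Lef1 had no peak and Lrp6 the highest pileup, in a peak of moderate length.

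The promoter of Lef1 was rich in CpG even so. From 250 bp before to 50 bp after the gene start it held 30 CpG dinucleotides at 71.0% GC, where the median of all protein-coding genes was 11 CpG and 55.0% GC. Lrp6 held 53 at 78.7%. The 100 bases before the start of each gene are shown for this pair because the first had no peak and the second the highest pileup of the set. They lie at chr3:130813289-130813388 (plus strand) and chr6:134516984-134517083 (minus strand), with each CpG in capitals:
Lef1 upstream: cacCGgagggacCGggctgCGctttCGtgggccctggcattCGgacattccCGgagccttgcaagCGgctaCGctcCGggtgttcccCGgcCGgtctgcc
Lrp6 upstream: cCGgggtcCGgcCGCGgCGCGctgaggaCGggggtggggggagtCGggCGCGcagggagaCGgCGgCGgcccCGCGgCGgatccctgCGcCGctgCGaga

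The first held 11 CpG in 100 bases and the second 19. The distal peaks had far fewer. The 100 bases at the centre of the intronic peaks of Tcf7l1 and Tcf7l2 with the highest pileup of each gene, chr6:72627657-72627756 (minus strand) and chr19:55912585-55912684 (plus strand), held 3 and 4:
Tcf7l1 intronic peak: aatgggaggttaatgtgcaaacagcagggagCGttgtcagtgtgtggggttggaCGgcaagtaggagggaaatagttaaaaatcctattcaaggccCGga
Tcf7l2 intronic peak: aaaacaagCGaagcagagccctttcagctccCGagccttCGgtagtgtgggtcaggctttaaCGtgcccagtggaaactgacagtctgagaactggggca

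Over whole peaks, the 8 distal peaks had 0.895 to 3.53 CpG per 100 bp and a GC content of 44.9 to 55.3%, with medians of 2.22 and 53.3% over all distal peaks. The TSS peaks had 3.56 to 12.2 CpG per 100 bp, and the lowest of these was Sfrp2. The part of base composition in these pileups was not tested.

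**Figure D3:**
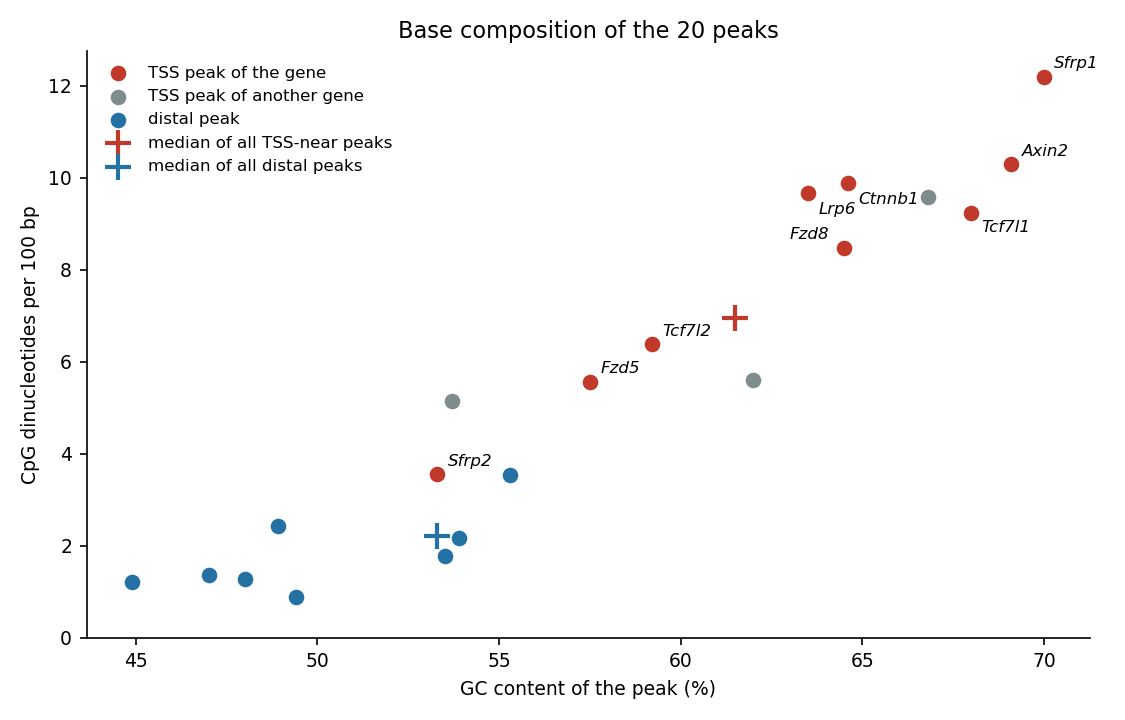
GC content and CpG dinucleotides per 100 bp of the 20 peaks, one point each, coloured by class, with the medians of all TSS-near and all distal peaks as crosses. Sfrp1 is at the top right (70.0%, 12.2), and Sfrp2 at 53.3% and 3.56 lies beside the distal peaks.

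Axin2 (ENSMUSG00000000142.9, chr11:108781663-108812097, plus strand), a scaffold of the destruction complex and a feedback target of the pathway, had 1 peak at chr11:108781687-108782493. It was 807 bp long and started 24 bp after the gene start, so none of it lay upstream of the gene record. Of its bases 569 were in untranslated exon and 238 in intron, and 1 of 7 annotated TSSs lay in it. Its pileup of 19.91 was the second highest of the set (rank 2244), whereas its length ranked 8631st and its FE of 4.71 ranked 5608th. Pileup and FE ranked in the opposite order to Sfrp1, a peak of similar length and GC content (69.1% at Axin2). Pileup divided by FE, a rough measure of the local background, was 4.23 at Axin2 and 2.42 at Sfrp1. No other peak lay within 411449 bp of Axin2.

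**Figure D4:**
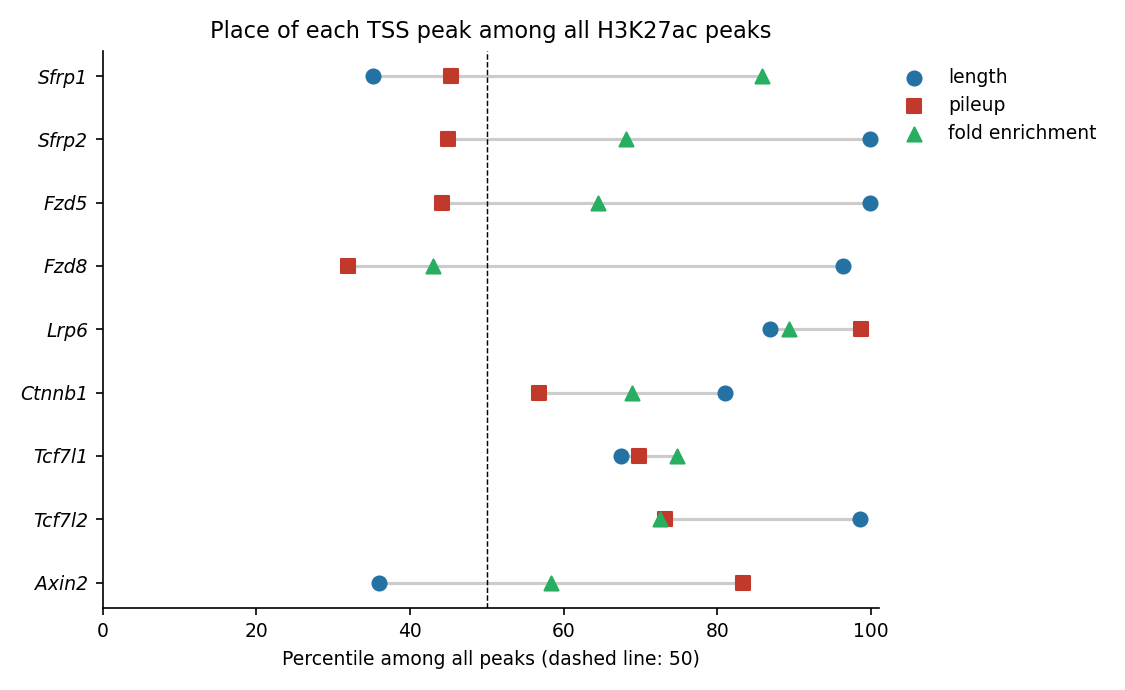
Percentile among all 13463 peaks of the length, pileup and fold enrichment of each of the 9 TSS peaks, with 50 as a dashed line. Sfrp2, Fzd5 and Fzd8 are far to the right by length and below 50 by pileup, Axin2 shows the reverse, and Lrp6 lies between 86.8 and 98.7 by all 3 measures.

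The Axin2 peak held 1 CTTTGAT and 1 CTTTGAA, and it was the only peak at a TSS of the set with both TCF/LEF words. The first lay 78 bp and the second 441 bp after the gene start. The CTTTGAA was also the only match among the 20 peaks to fall in the 300 bp at the centre of a peak. Windows are chr11:108781731-108781757 and chr11:108782094-108782120 on the plus strand:
Axin2 CTTTGAT: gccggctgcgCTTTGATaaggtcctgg
Axin2 CTTTGAA: cggctcgcgcCTTTGAAgtgcacagtt

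Over whole TSS peaks, CTTTGAT was found once each at Sfrp2, Lrp6, Ctnnb1 and Axin2, and CTTTGAA once at Axin2 and 2 times at Tcf7l2. At Lrp6 the match lay 390 bp upstream of the gene. Longer peaks hold more words by length alone. Per kb of TSS peak, CTTTGAT was found 0.166 times in the 9 peaks (4 matches) and 0.0743 times in all peaks near a TSS, CTTTGAA 0.124 (3 matches) and 0.127 times, and TAATTA 0.0829 (2 matches) and 0.0865 times. Windows of equal length were also compared. In the 300 bp at the peak centre, CTTTGAT was in 0 of the 20 peaks and in 1.84% of all peaks, CTTTGAA in 1 of 20 and in 2.98%, and TAATTA in 0 of 20 and in 2.09%. In the 300 bp promoter windows of the 10 genes neither TCF/LEF word was found, and they were in 3.46% (CTTTGAT) and 4.75% (CTTTGAA) of all protein-coding genes. Sets of 20 peaks and 10 promoters are too small to set against shares this low.

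Beyond the 10 genes, a list of 90 further Wnt pathway genes was counted by role, and 50 of them had a TSS peak (55.6%, 95% Wilson interval 45.3 to 65.4%, counting error only). This share was near the 49.8% of all protein-coding genes. Counts differed between roles, which was not tested. Of 19 cytoplasmic transducers 18 had a TSS peak, all but Dact2, and of 11 nuclear factors 10 had one, all but Tle2. Of 13 receptors 10 had one. By contrast 2 of 20 ligands (Wnt5a and Wnt5b), 3 of 14 secreted modulators (Frzb, Dkk3 and Notum) and 0 of 2 genes of ligand maturation (Porcn and Wls) had one. Sfrp1 and Sfrp2 both had a TSS peak, in a role where their relatives Sfrp4 and Sfrp5 had none and Frzb had a low one (pileup 7.49, 828 bp).

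**Figure D5:**
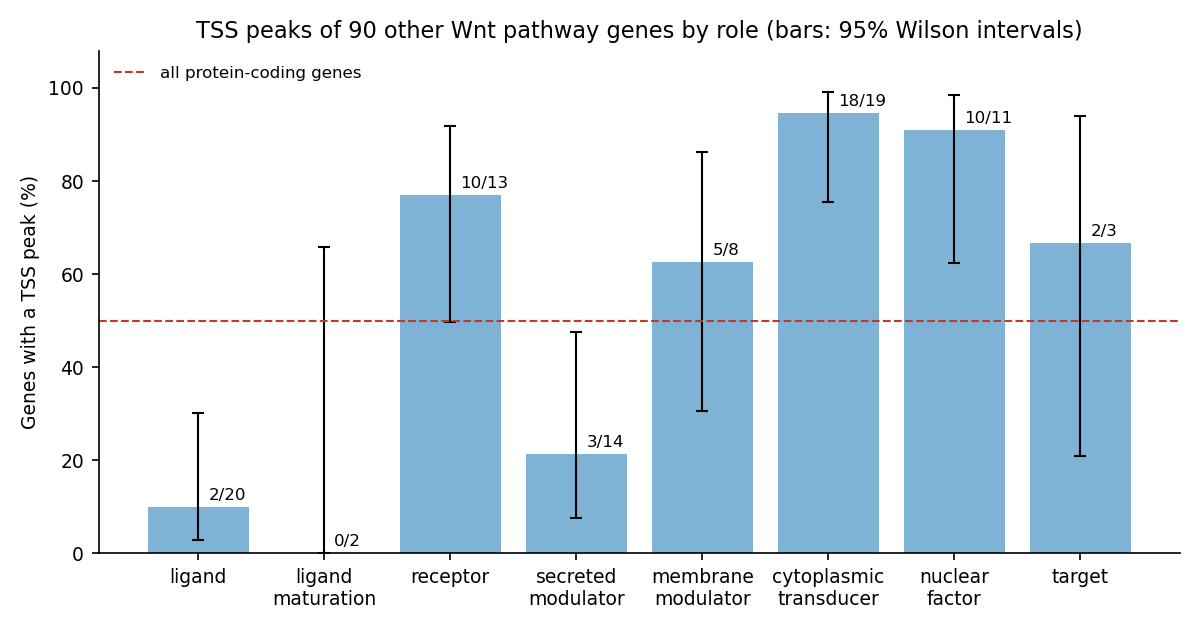
Share of genes with a TSS peak among the 90 further Wnt pathway genes by role, with 95% Wilson intervals and the counts beside the bars. Cytoplasmic transducers (18 of 19) and nuclear factors (10 of 11) lie above the dashed line at 49.8%, and ligands (2 of 20) and secreted modulators (3 of 14) below it.

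Among receptors, the co-receptor Lrp5 had a pileup of 25.12 (rank 251), close to the 25.6 of Lrp6, with a shorter peak of 1121 bp. Fzd3 had a pileup of 18.24, and Fzd2 the longest receptor peak at 2374 bp, which was less than that of Fzd5. Among cytoplasmic transducers, the casein kinase gene Csnk1d had a pileup of 25.13, Apc, the scaffold lost in many colon tumours, had 24.54, and the kinase gene Gsk3b had the longest peak at 3798 bp. Among nuclear factors the Groucho co-repressors Tle3 and Tle4 had pileups of 22.46 and 20.96, and the peak of Tle3 was the longest of the role at 3938 bp.

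Of the membrane modulators 5 of 8 had a TSS peak. The R-spondin receptor Lgr4 had a pileup of 20.12, the Dickkopf receptor Kremen1 had 17.9, and Lgr5 had the longest peak at 1713 bp, with a pileup of 11.31. Among secreted modulators, Dkk3 had a pileup of 11.75 over 2866 bp and Notum a pileup of 8.03. Notum encodes an enzyme that inactivates Wnt ligands. Among ligands, Wnt5b had a pileup of 18.26 over 1022 bp and Wnt5a 11.98 over 484 bp. Of the target genes, Ccnd1, which drives the cell cycle, had a TSS peak of 7915 bp, the 9th longest of the list, with a pileup of 12.43, and Myc had one of 3416 bp with 12.03. Like Sfrp2 and Fzd5, both were long peaks with a pileup below the median of all peaks. By FE, Ccnd1 (4.65) was above the median of all peaks, as Sfrp2 and Fzd5 were, and Myc (3.56) was below it. Sp5 had no TSS peak.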

How the data were processed

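H3K27ac ChIP-Seq reads of E14 retina were aligned by the authors to mm9 with Bowtie2, and MACS 2.1.0.20140616 called broad regions on the pooled replicates against 1 isotype control (broad cutoff 0.1, q cutoff 0.05, 1 tag per position, fragment length 313 bp). The larger library was scaled to the smaller. The deposited pileup signal is the mean over each region. The fold enrichment ratio deposited by the authors is relative to the local background, and −log10 q values were deposited alongside. The control was sequenced 12.3 times less deeply than the ChIP after filtering, which limits FE where the background is low.

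From these values, peaks were joined to GENCODE vM1 genes and ranked (Python 3.11.15, pandas 2.3.3, matplotlib 3.10.9). A TSS peak overlapped 1000 bp on either side of any TSS of the gene. Sequences were read from the mm9 genome. All 20 peaks are described. In the further list the rule was to name, per role, the 2 genes with the highest pileup and the 1 with the longest peak. Genes listed by absence, or beside a member, were named after their values were seen. Members and lists were chosen with earlier results of these data known. Overlap and motif routines were tested on simulated data. Alternatives covered peak thresholds, merging of peaks under 1000 bp apart, TSS definitions, window size, the set behind each percentile and motif windows. Other samples of the series were not analysed here. The result for 1 marker gene is not reported here.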

Additional observations from a re-analysis of the deposited data

How the results depend on the processing

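The count of 9 genes with a TSS peak was kept under 5 of 6 alternatives and was 8 with the start of the gene record as the only TSS, where the internal peak of Ctnnb1 no longer counted. The background share of protein-coding genes moved to 37.8% with an FE of at least 4 and a q of at most 0.001, 47.7% with a q of at most 0.01, 44.2% when the peak had to cover the TSS base, 51.4% with 5000 bp upstream to 1000 bp downstream, and 47.5% with the start of the gene record. The 8 distal peaks became 3 under the stricter FE and q limits, 4 with a q of at most 0.01 and 5 in gene bodies alone. They ranged from 6 to 12 with flanks of 20 and 100 kb. Of the further Wnt genes, 36 had a TSS peak under the stricter limits. Lost were the ligand Wnt5a, the receptors Fzd7, Ryk and Ptk7, and the secreted modulators Frzb and Notum. Also lost were the membrane modulators Lgr5 and Kremen1, the transducers Dvl3, Amer1 and Nkd2, the nuclear factors Tcf7 and Bcl9l, and Myc. By FE in place of pileup, the percentile among all peaks went from 45.3 to 85.8 at Sfrp1, from 45 to 68.1 at Sfrp2, from 44.2 to 64.4 at Fzd5, from 98.7 to 89.3 at Lrp6 and from 83.3 to 58.4 at Axin2. Among peaks near a TSS and among peaks within the stricter limits, the pileup percentile went to 34.1 and 28.7 at Sfrp1, 33.8 and 28.4 at Sfrp2, 33 and 27.6 at Fzd5, 19.8 and 14.4 at Fzd8 (31.9 among all peaks), and, crossing the middle, from 56.8 to 47.5 and 42.2 at Ctnnb1. The causes were not tested. No replicate could be left out, and no paired analysis was possible because the list is pooled. The shallow control limits FE. The lowest pileup listed was 6, but peaks were called against the local background. Any signal at Lef1 that did not pass the cutoffs of the list would not be seen, whatever its pileup.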

Other observations

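The 20 ligands of the further list, which are the Wnt genes and Ndp, rarely had a TSS peak. Of these ligands 11, all of them Wnt genes, had a distal peak in the gene body or the 50 kb on either side. Of the 11, 10 had no TSS peak. Of protein-coding genes 17.8% had such a peak. With an FE of at least 4 and a q of at most 0.001, a limit applied to these counts after seeing the data, 5 ligands (Wnt2b, Wnt3, Wnt3a, Wnt7b and Wnt9a) and 7.12% of protein-coding genes had one. The 11 ligands were listed after their values were seen. They shared 12 distinct peaks, because the windows of neighbouring ligands overlap: Wnt6 and Wnt10a held the same peak on chromosome 1 (pileup 17.19, 415 bp), and Wnt3a and Wnt9a the same peak on chromosome 11 (pileup 12.53, 489 bp). Of the 12 peaks 4 lay inside a ligand gene. One of these was in Wnt3, with a pileup of 14.5 and a length of 406 bp, and Wnt5b had 2 inside the gene and 1 upstream of it, with pileups of 6.27 to 11.53. The longest of the 12 lay 19.4 kb upstream of Wnt11 and measured 1778 bp, with a pileup of 12.84. Wnt7b had a peak 44.1 kb upstream and another downstream, 74.0 kb after its start. Which gene a distal peak acts on was not tested, and the windows also hold other genes.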
